A study of Mus musculus with 18 samples.

Results

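Deptor and 9 other genes of the mTOR pathway were followed through ribosome footprints and RNA of mouse epidermal basal cells. The 10 genes (Deptor, Mtor, Rptor, Rictor, Mlst8, Tsc1, Tsc2, Rheb, Akt1s1 and Rps6kb1) were taken by symbol from a count table of 20655 gene symbols. All 10 passed the filters on low counts in both kinds of library. The cells came from embryos harvested at E18.5 whose epidermis had received an shRNA by in utero injection at E9.5. WT shScram animals were of the Gt(ROSA)26Sortm4(ACTB-tdTomato,-EGFP) reporter line (Luo/J) and carried a scrambled shRNA. HrasG12V shScram animals were of strain FR-HrasG12V, with an oncogenic Hras allele and the same scrambled shRNA, and HrasG12V shEif2b5 animals were of that strain with an shRNA against Eif2b5, a subunit of the translation initiation factor eIF2B. Each condition had 3 footprint libraries and 3 RNA libraries, 18 in all. No group was labelled WT with shEif2b5, and strain and genotype cannot be told apart. One WT shScram footprint library, replicate 1, has Rosa26 in its genotype label in place of WT and was kept in its group.

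The kinase mTOR works in a complex with Raptor (Rptor) called mTORC1 and in a separate complex with Rictor called mTORC2, and mLST8 is part of both. DEPTOR binds mTOR and inhibits it, PRAS40 (Akt1s1) inhibits mTORC1, and the TSC1 and TSC2 proteins switch off the GTPase Rheb, which activates mTORC1. In keratinocytes as in other cells, mTORC1 promotes protein synthesis and growth, in part through the kinase S6K1 (Rps6kb1), while mTORC2 phosphorylates AKT.

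Library totals were 3319175 to 4933298 counts for footprints and 1771365 to 5505386 for RNA. Eif2b5, the shRNA target, had footprint levels of 82.7, 78.5 and 95.4 CPM (the count scaled to library size) in the libraries labelled HrasG12V shEif2b5 and of 91.9, 93.1 and 102 CPM in HrasG12V shScram. Its footprint log2 difference of -0.16 (95% interval -0.41 to 0.08) was not called, and its RNA, at 134, 128 and 143 CPM against 127, 388 and 145 CPM, overlapped. A lowering of the target against HrasG12V shScram was therefore not detectable in these libraries. WT shScram was at 102, 106 and 102 CPM in footprints and 158, 179 and 159 CPM in RNA, above every HrasG12V shEif2b5 library. Such a separation was seen in either direction for 16.1% and 16% of genes. The log2 differences against WT shScram of -0.27 (95% interval -0.52 to -0.02) and -0.29 were not called (edgeR adjusted p = 0.299 and 0.927). RNA libraries 1 and 3 of HrasG12V shScram differed from replicate 2 of their group. The correlation was 0.948, against at least 0.971 within the other groups, and does not tell which side stood apart. Replicate 2 had the smallest RNA total, 1771365 counts. The deviations of libraries 1 and 3 correlated with the GC content of the coding sequence (r of -0.446 and -0.587, across genes, which are not independent replicates). Such a correlation of the opposite sign was present in HrasG12V shEif2b5 RNA replicates 3 and 1 (0.481 and 0.32), and the other RNA libraries ran from -0.088 to 0.278. The members' RNA differences from HrasG12V shScram that are described below are given also without its libraries 1 and 3, in a fit that assumes that the 1 remaining library varies like the other groups. With 1 library left in that group, a call lost in this fit is not read as a result about a gene. All 7 basal keratinocyte markers listed, Krt5 and Krt14 among them, had counts in every group. So had 4 spinous and granular markers, and their sum was larger. In WT shScram footprints it was 19700 to 40800 CPM, against 8770 to 13000 CPM for the basal markers. In HrasG12V shScram it was 28200 to 34700 against 10200 to 14400 CPM, and in HrasG12V shEif2b5 20500 to 66000 against 13500 to 15600 CPM. Counts of basal markers thus do not show that the cells were basal only. The labels do not tell whether replicate libraries stem from different animals, and p-values here cover the spread between the sequenced libraries, which may be technical.

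The start codons of the genes are shown first, since footprints report ribosomes that have initiated and the genes differed widely in footprints per RNA. Below are the last 6 leader bases, the start codon in capitals and the next 7 coding bases for the genes at the high and the low end of that ratio and for Deptor and Rictor, from the longest coding transcript in GENCODE M21 (mm10).
Rheb: accaagATGcctcagt
Mlst8: caaacaATGaatacca
Deptor: aggaacATGgaagagg
Rictor: gtcaatATGgcggcga
Akt1s1: ggacccATGctcgcag
Tsc1: gagagaATGgcccagt
The most favourable context for initiation has a purine 3 bases before the start codon and a G just after it. Of the 10 genes, 7 had the purine and 5 had the G, against 84.6% and 49.9% of 19300 genes with an annotated context. Both features were present in 4 of the 10 (Deptor, Rictor, Tsc1 and Tsc2) and in 41.6% of all genes. Rheb and Mlst8, with the most footprints per RNA, had the purine without the G. Tsc1, with the fewest in WT shScram, had both. A context is a description of letters and no measure of initiation.

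Deptor was the 1 member called between conditions in both footprints and RNA. It lies on chromosome 15 at chr15:55112317-55259271 on the plus strand (mm10; ENSMUSG00000022419.16), with a longest coding sequence of 1227 bases in 9 coding exons. Its footprint levels were 16.5, 16.1 and 16.0 CPM in WT shScram. In HrasG12V shScram they were 44.6, 35.0 and 40.3 CPM, and in HrasG12V shEif2b5 37.4, 31.9 and 42.9 CPM. Every library of either HrasG12V group was above every WT library, a separation seen in either direction for 20.3% and 16.1% of genes. Deptor footprints rose 2.47-fold in HrasG12V shScram against WT shScram (log2 1.31, SE 0.17, 95% interval 0.96 to 1.65; edgeR adjusted p = 0.00023), and in this comparison 1.7% of 11448 genes were called in either direction. They rose 2.31-fold in HrasG12V shEif2b5 against the same WT libraries (log2 1.21, SE 0.16; adjusted p = 0.000773), where 0.97% of genes were called. The comparisons share their WT libraries. Both footprint calls were kept in each of the 16 alternatives tried for them.

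Deptor RNA moved by a similar amount. The RNA levels were 17.0, 10.1 and 9.9 CPM in WT shScram, 31.1, 31.1 and 32.6 CPM in HrasG12V shScram. In HrasG12V shEif2b5 they were 24.1, 29.1 and 24.9 CPM. No HrasG12V library overlapped with the WT libraries, as was so for 26.1% and 16% of genes in these RNA comparisons. RNA rose 2.63-fold in HrasG12V shScram (log2 1.39, SE 0.22, 95% interval 0.93 to 1.86; adjusted p = 0.00198, with 7.7% of 11096 genes called). It rose 2.16-fold in HrasG12V shEif2b5 (log2 1.11, SE 0.23; adjusted p = 0.0412, with 0.324% of genes called). The 3 libraries of HrasG12V shScram differed little for Deptor. The first RNA call was kept in 17 of 18 alternatives. It was lost with HrasG12V shScram libraries 1 and 3 both left out (log2 1.38), which leaves 1 library in that group. The second was lost in 6 of 18 alternatives, with log2 values from 0.95 to 1.38 and adjusted p from 0.00806 to 0.246; leaving out any 1 HrasG12V shEif2b5 library, or WT library 2 or 3, was enough.

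Between the HrasG12V groups, Deptor was not called. Its footprint log2 difference in HrasG12V shEif2b5 against HrasG12V shScram was -0.10 (95% interval -0.41 to 0.22; adjusted p = 0.994), and the groups overlapped. The RNA log2 difference was -0.28 (95% interval -0.72 to 0.16; adjusted p = 0.38), with every HrasG12V shEif2b5 library below every HrasG12V shScram library, as was so in either direction for 28.6% of genes. It was -0.25 without HrasG12V shScram libraries 1 and 3 (adjusted p = 0.801).

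Translation efficiency was tested as the interaction of condition and library kind, the departure of a gene's footprint change from its RNA change. For Deptor the log2 departure was -0.09 (95% interval -0.64 to 0.47; adjusted p = 0.912) in HrasG12V shScram against WT shScram. It was 0.09 (95% interval -0.49 to 0.66; adjusted p = 0.98) in HrasG12V shEif2b5 against WT shScram. Neither was called, and the intervals include departures of up to 1.58-fold. No member was called in either comparison, where edgeR called 1.17% and 0% of 10793 genes. In the second, 634 genes had an unadjusted p under 0.05, and DESeq2 and limma voom each called 0.

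**Figure D1:**
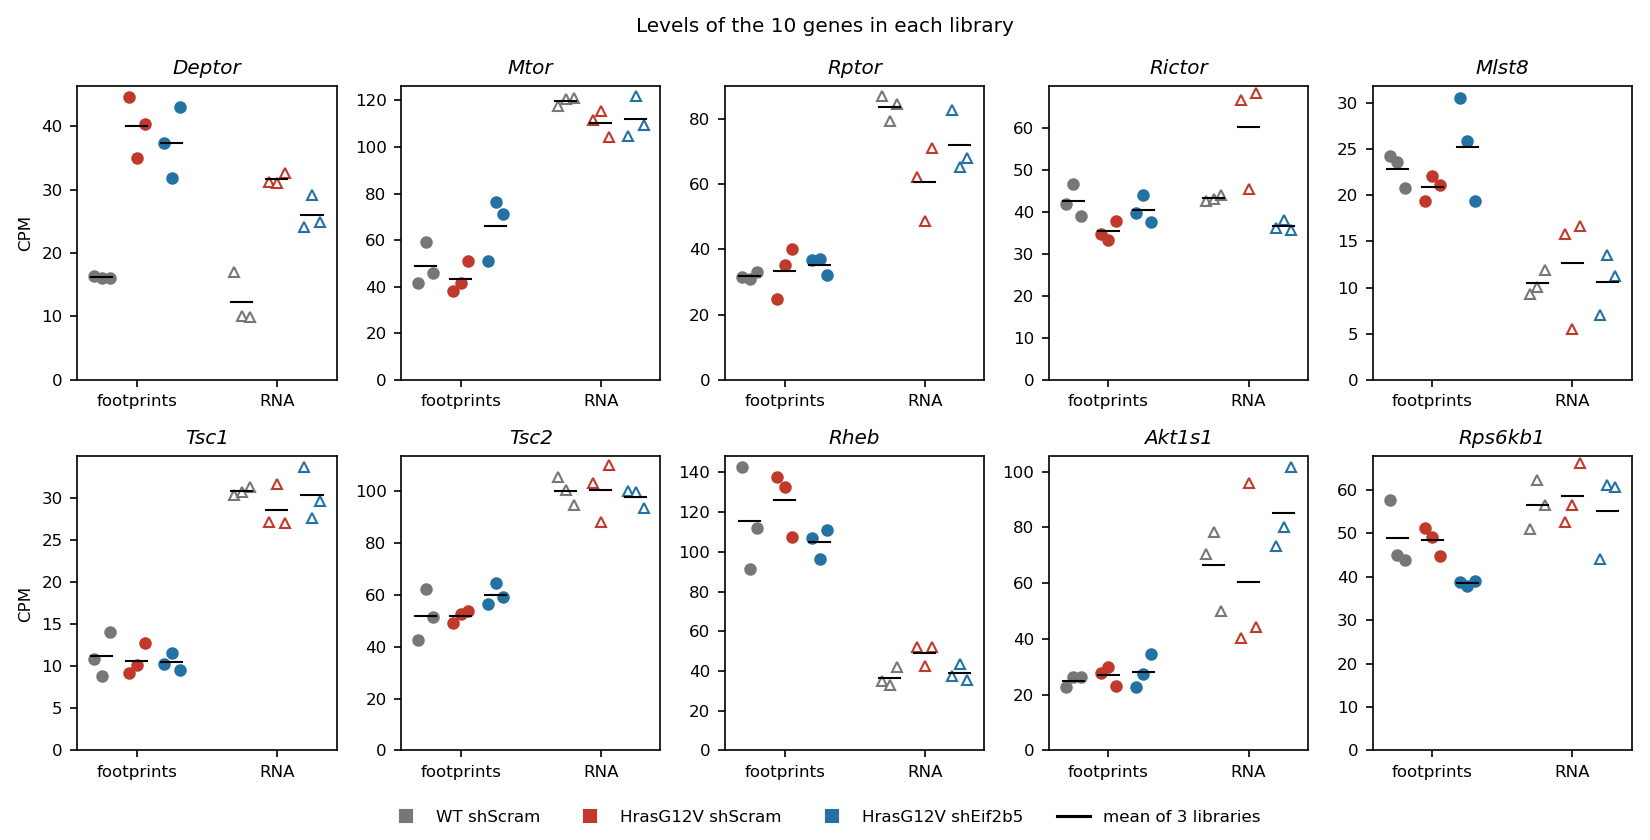
Levels of the 10 genes in CPM (vertical axes, linear and starting at 0) in each of 9 footprint libraries (filled circles) and 9 RNA libraries (open triangles), coloured by condition, with bars at the mean of 3 libraries. Deptor sits at 16.0 to 16.5 CPM in WT footprints and at 31.9 to 44.6 CPM in both HrasG12V groups, while Rictor and Akt1s1 RNA spread widely within HrasG12V shScram.

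The genes whose levels followed Deptor most closely were found by the lower of the correlations (log2 of CPM plus 1) over the 9 footprint and the 9 RNA libraries, among 8259 genes with a mean of at least 10 CPM in each kind. They were Emb, an immunoglobulin superfamily membrane protein (r at least 0.935), Thy1, a GPI-anchored surface protein (0.933), Hmcn1, an extracellular matrix protein (0.93), Thbs2, a thrombospondin of the matrix (0.921), and Prr9, a proline-rich protein (0.906). These correlations describe libraries that share their conditions. Mean footprint levels of Thy1 were 23.4 CPM in WT shScram, 75.3 CPM in HrasG12V shScram and 62.4 CPM in HrasG12V shEif2b5, and those of Emb were 34.7, 71.7 and 63.9 CPM in the same order. In footprints the other members' correlations with Deptor ran from -0.61 (Rictor) to 0.34 (Akt1s1), and in RNA from -0.67 (Rptor) to 0.59 (Rheb).

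Markers of other cell types were summed beside this result. The 6 melanocyte markers, all with counts in every group, summed to 1170 to 1390 CPM in WT shScram footprints, 1350 to 1600 CPM in HrasG12V shScram and 1370 to 1540 CPM in HrasG12V shEif2b5. In RNA they summed to 373 to 540, 580 to 711 and 455 to 567 CPM, so that they were higher in HrasG12V shScram. The 6 dermal fibroblast markers overlapped between groups in footprints, at 1230 to 2470, 1210 to 1830 and 1160 to 1360 CPM. Among markers of other epidermal states, the 4 of the hair follicle were lower in HrasG12V shScram than in WT shScram without overlap, at 343 to 389 against 394 to 476 CPM in footprints and 440 to 555 against 725 to 758 CPM in RNA. In HrasG12V shEif2b5 they were at 348 to 429 and 680 to 820 CPM. For single genes, separation of HrasG12V shScram from WT shScram in either direction was seen in 20.3% (footprints) and 26.1% (RNA). The sums of 4 spinous and granular markers overlapped in footprints, while in RNA both HrasG12V groups (33000 to 62100 CPM with shScram, 47300 to 59600 CPM with shEif2b5) lay below WT shScram (64400 CPM at its lowest). The 7 basal markers summed in RNA to 8570 to 11900 CPM in HrasG12V shScram, below WT shScram at 12700 to 17100 CPM and HrasG12V shEif2b5 at 13300 to 15500 CPM. In footprints they were higher in HrasG12V shEif2b5 (13500 to 15600 CPM) than in WT shScram (8770 to 13000 CPM). HrasG12V shScram, at 10200 to 14400 CPM in footprints, overlapped with WT shScram and was not lower there. Single genes separated in either direction in 16.1% (footprints) and 16% (RNA) for HrasG12V shEif2b5 against WT shScram. Between the HrasG12V groups in RNA 28.6% did. Such shares were not computed for sums of genes. The RNA sums are given with all libraries only, including those of HrasG12V shScram whose deviations correlated with GC content (r of -0.446 and -0.587). Whether the RNA differences in these sums hold without those libraries was not tested. Of the immune markers, Cd207 was at 0 in all groups. The part of these cells in the Deptor result was not tested, and in bulk samples fewer cells of a type and less RNA per cell cannot be told apart.

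The genes of the mTOR complexes themselves were not called beside Deptor in the comparisons with WT shScram. Across the 10 members, Deptor was the 1 gene called in footprints in each comparison with WT shScram, where 1.7% and 0.97% of all genes were called. The median footprint log2 difference of the members was -0.01 in HrasG12V shScram against WT shScram and 0.15 in HrasG12V shEif2b5 against WT shScram, beside -0.01 and -0.01 over all genes tested. In RNA, 1 of 10 was called in each of the 3 comparisons, Deptor in both against WT shScram and Rictor between the HrasG12V groups. Of all genes, 7.7% were called in HrasG12V shScram and 0.324% in HrasG12V shEif2b5 against WT shScram, and 13% between the HrasG12V groups. The medians in RNA were 0.03, -0.07 and -0.03 (HrasG12V shScram against WT shScram, HrasG12V shEif2b5 against HrasG12V shScram, HrasG12V shEif2b5 against WT shScram), beside 0.01, -0.01 and -0.0014 over all genes.

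Mtor, the kinase of both complexes, had its highest footprint levels in HrasG12V shEif2b5. They were 51.1, 76.3 and 71.2 CPM there, against HrasG12V shScram at 38.1, 41.5 and 50.9 CPM and WT shScram at 41.6, 59.2 and 46.1 CPM. The HrasG12V groups did not overlap, by a narrow margin, as was so in either direction for 11.1% of genes. The log2 difference was 0.60 (95% interval 0.24 to 0.96; unadjusted p = 0.00245) and did not survive adjustment over all genes (edgeR adjusted p = 0.994). In that footprint comparison edgeR called 0 of 11448 genes, with 519 at an unadjusted p under 0.05, while DESeq2 called 1 and limma voom 0. With offsets for GC content and coding length the value was 0.38. Mtor RNA was 118, 120 and 121 CPM in WT shScram, 112, 115 and 104 CPM in HrasG12V shScram, and in HrasG12V shEif2b5 105, 122 and 109 CPM. The RNA groups thus lay close together, and the departure of footprints from RNA between the HrasG12V groups (log2 0.57, 95% interval 0.12 to 1.02) was not called (adjusted p = 0.15).

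Rictor, which defines mTORC2, was called between the HrasG12V groups in RNA and in translation efficiency. Both differences were smaller without RNA libraries 1 and 3 of HrasG12V shScram (log2 -0.31 and 0.50), which leaves 1 RNA library in that group. RNA levels were 42.5, 43.1 and 43.9 CPM in WT shScram, 66.6, 45.5 and 68.2 CPM in HrasG12V shScram. In HrasG12V shEif2b5 they were 36.3, 37.9 and 35.7 CPM. Replicates 1 and 3 of HrasG12V shScram, whose deviations correlated with GC content at -0.446 and -0.587, carried the high values, and replicate 2 was close to WT. Rictor RNA fell by 0.73 on the log2 scale in HrasG12V shEif2b5 against HrasG12V shScram (SE 0.17; adjusted p = 0.0137, with 13% of genes called). Without those 2 libraries the difference was -0.31 (adjusted p = 0.625), and leaving out either of them, or HrasG12V shEif2b5 replicate 1 or 3, also ended the call (adjusted p of 0.0626, 0.06, 0.0561 and 0.0718). Leaving out 1 library gave log2 values from -0.88 to -0.64 and edgeR adjusted p from 0.000477 to 0.0718. The call was kept in 11 of 18 alternatives, and the sign held in all 18.

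Rictor footprints were 41.8, 46.7 and 39.1 CPM in WT shScram, 34.8, 33.3 and 37.9 CPM in HrasG12V shScram. In HrasG12V shEif2b5 they were 39.8, 43.9 and 37.6 CPM. The HrasG12V shScram libraries lay below the WT libraries without overlap, as was so in either direction for 20.3% of genes, and the log2 difference of -0.27 was not called (adjusted p = 0.405). Against HrasG12V shScram, translation efficiency of Rictor was called higher in HrasG12V shEif2b5 (log2 0.92, SE 0.22; adjusted p = 0.0265), the 1 member called where 2.11% of 10793 genes were. It was not called with offsets for GC content and coding length (0.63, edgeR adjusted p = 0.112). Without HrasG12V shScram RNA libraries 1 and 3, with 1 RNA library left in that group, it was 0.50. Leaving out single libraries gave edgeR adjusted p from 0.00172 to 0.0907. Leaving out 1 library kept the call only for HrasG12V shEif2b5 footprint replicate 1, HrasG12V shEif2b5 RNA replicate 2 and HrasG12V shScram RNA replicate 2. Against WT shScram, its departure in HrasG12V shScram was -0.76 (edgeR adjusted p = 0.0735). It was called in 3 of 22 alternatives (lowest adjusted p = 0.00871) and was -0.35 without HrasG12V shScram RNA libraries 1 and 3. Rictor RNA in that comparison differed by 0.50 (95% interval 0.14 to 0.85) without overlap, as for 26.1% of genes. It was not called (edgeR adjusted p = 0.0754), and over 18 alternatives it ran from 0.08 to 0.64 and was called in 1.

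Rptor, the mTORC1 scaffold, had RNA levels of 87.0, 79.3 and 84.4 CPM in WT shScram, 62.2, 48.9 and 71.0 CPM in HrasG12V shScram. In HrasG12V shEif2b5 they were 82.9, 65.3 and 68.1 CPM. HrasG12V shScram lay below WT shScram without overlap, as was so in either direction for 26.1% of genes, and the log2 difference of -0.44 (95% interval -0.78 to -0.10) was not called (adjusted p = 0.0966). Without HrasG12V shScram libraries 1 and 3 it was -0.77 (adjusted p = 0.157). Its footprints ran from 24.7 to 40.1 CPM with overlapping groups. Mlst8, the small subunit of both complexes, had few RNA counts, with 10 in HrasG12V shScram replicate 2, and RNA levels from 5.55 to 16.6 CPM. Its RNA log2 difference in HrasG12V shScram against WT shScram turned from 0.35 to -0.93 without libraries 1 and 3 of HrasG12V shScram, and neither value was called. Its footprints ran from 19.4 to 30.6 CPM, and no difference was called.

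**Figure D2:**
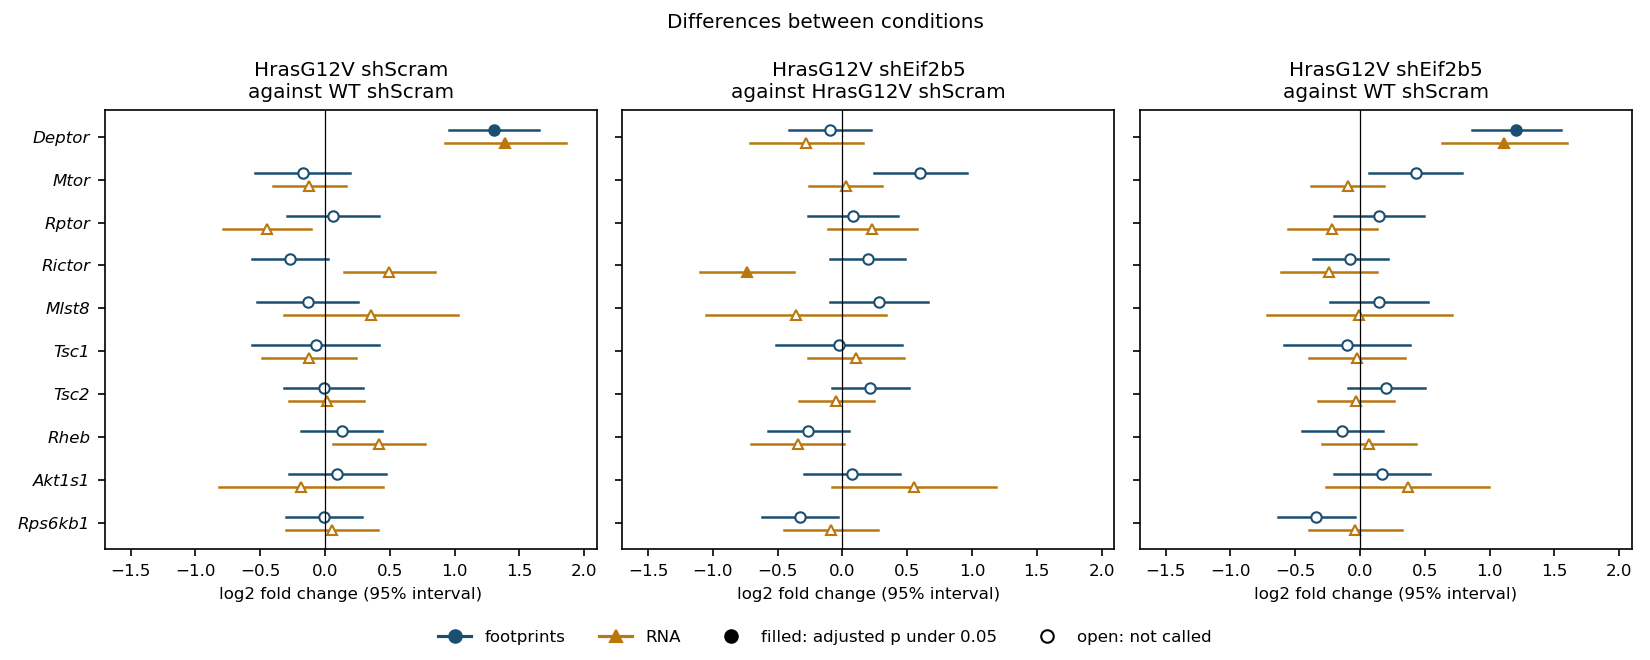
Log2 fold changes of the 10 genes with 95% intervals (horizontal axes) in 3 comparisons, for footprints (circles) and RNA (triangles), filled where the edgeR adjusted p was under 0.05. Deptor stands at 1.31 and 1.39 in HrasG12V shScram against WT shScram and at 1.21 and 1.11 in HrasG12V shEif2b5 against WT shScram, and Rictor RNA at -0.73 is the 1 filled point between the HrasG12V groups.

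Upstream of mTORC1, the TSC genes and Rheb gave no call with all libraries. Tsc2, the subunit with the GTPase-activating domain, had RNA levels from 88.3 to 110 CPM over the 9 libraries. Its footprints were 56.5, 64.5 and 59.4 CPM in HrasG12V shEif2b5 and 49.1, 52.7 and 53.8 CPM in HrasG12V shScram, separate (as for 11.1% of genes in either direction) but not called (log2 0.21, 95% interval -0.08 to 0.51; adjusted p = 0.994). Tsc1, its stabilising partner, had RNA levels from 27.0 to 33.7 CPM and footprint levels from 8.84 to 14.0 CPM, with overlapping groups in all 6 comparisons. Rheb RNA was 34.8, 33.0 and 42.1 CPM in WT shScram and 51.9, 42.7 and 52.2 CPM in HrasG12V shScram. These Rheb groups did not overlap, as for 26.1% of genes, and the log2 difference of 0.42 (95% interval 0.06 to 0.77) was not called (adjusted p = 0.13). It was called without HrasG12V shScram replicate 2 (0.49, adjusted p = 0.0454, over a range of 0.0454 to 0.774) and was 0.21 without replicates 1 and 3 of that group (adjusted p = 0.774). With GC and length offsets the sign of the Rheb RNA difference turned (-0.19 at its lowest), and Rheb has the lowest coding GC content of the members at 40.6%.

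Akt1s1 encodes PRAS40, and its RNA was uneven within HrasG12V shScram. Levels were 70.4, 78.5 and 50.1 CPM in WT shScram, 40.5, 96.0 and 44.2 CPM in HrasG12V shScram. In HrasG12V shEif2b5 they were 73.3, 80.2 and 101 CPM. Here replicates 1 and 3 of HrasG12V shScram were the low ones, and Akt1s1 has the highest coding GC content of the members at 64.8%. Over all 10 members, the log2 RNA level of those libraries less that of replicate 2 had a Pearson correlation of -0.504 (Spearman -0.426) with coding GC content, given as a description of 10 genes in the same libraries. The largest of these differences was not at either end of GC content. It was that of Mlst8 (1.39 at 52.9% GC, with few counts), while Rheb, lowest in GC content, had 0.28. Akt1s1 RNA was not called in any comparison with all libraries. Without HrasG12V shScram replicate 2 it was called lower against WT shScram (log2 -0.63, adjusted p = 0.0251, over a range of 0.0251 to 0.992) and higher in HrasG12V shEif2b5 against HrasG12V shScram (1.00, adjusted p = 0.000969, over a range of 0.000969 to 0.961). Without replicates 1 and 3 of that group both signs were the opposite, at 0.56 (adjusted p = 0.348) and -0.18 (adjusted p = 0.821). Over the 18 alternatives the log2 difference against WT shScram ran from -0.63 to 0.56, with the sign of the value from all libraries (-0.18) in 13 of them. Akt1s1 footprints were even, at 22.6 to 34.7 CPM.

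Downstream, Rps6kb1 (S6K1) had footprint levels of 38.8, 37.9 and 38.9 CPM in HrasG12V shEif2b5, below HrasG12V shScram at 51.3, 49.2 and 44.8 CPM and below WT shScram at 57.7, 44.9 and 43.8 CPM. The HrasG12V shEif2b5 libraries overlapped with neither group, as was so in either direction for 11.1% and 16.1% of genes. The log2 differences of -0.33 (95% interval -0.62 to -0.03; unadjusted p = 0.0307) and -0.34 (95% interval -0.63 to -0.04; unadjusted p = 0.0274) did not pass adjustment over all genes (adjusted p = 0.994 and 0.28). Rps6kb1 RNA, at 44.0 to 66.3 CPM, overlapped between all groups.

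Levels between genes were compared per kilobase of coding sequence over the 9 libraries of a kind. Rheb had the highest footprint level, 209 ± 32.8 CPM per kilobase (SD, n = 9 libraries over the 3 conditions), at the percentile 92.1 of genes tested. Rps6kb1 (28.7 ± 4.17), Akt1s1 (27.2 ± 3.96), Deptor (25.4 ± 9.68) and Mlst8 (23.5 ± 3.67) followed in CPM per kilobase, with overlapping spreads over the 9 libraries. The place of Deptor in this order depended on the condition. In WT shScram it was at 13.2 ± 0.187 CPM per kilobase (SD, n = 3), below Mlst8 at 23.4 ± 1.88, and it was at 32.6 ± 3.93 in HrasG12V shScram and 30.5 ± 4.5 in HrasG12V shEif2b5, the highest mean after Rheb in both. Tsc2 (10.1 ± 1.25), Rptor (8.37 ± 1.11), Rictor (7.70 ± 0.828) and Mtor (6.91 ± 1.76) formed the next set, and Tsc1 was lowest at 3.10 ± 0.495. In RNA, Rheb (75.1 ± 12.9 CPM per kilobase) and Akt1s1 (71.7 ± 22.1) were at the top and did not differ beyond their spread, and Rictor (9.10 ± 2.40) and Tsc1 (8.58 ± 0.654) were at the bottom. The highest and the lowest member thus differed 67.4-fold in footprints per kilobase and 8.75-fold in RNA per kilobase.

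The ratio of mean footprint CPM to mean RNA CPM spanned -1.45 to 1.65 on the log2 scale among the members in WT shScram. Rheb had ratios of 3.15 in WT shScram, 2.57 in HrasG12V shScram and 2.70 in HrasG12V shEif2b5, at percentiles 93, 92.8 and 88.5 of 10793 genes. Mlst8 followed with 2.19, 1.65 and 2.38, and Deptor with 1.31, 1.26 and 1.44. Rictor was near 1 in WT shScram (0.985) and in HrasG12V shEif2b5 (1.10), and at 0.588 in HrasG12V shScram. Rps6kb1 (0.864, 0.827 and 0.698), Tsc2 (0.519, 0.516 and 0.615), Mtor (0.408, 0.394 and 0.591), Rptor (0.381, 0.550 and 0.490), Akt1s1 (0.378, 0.447 and 0.333) and Tsc1 (0.365, 0.373 and 0.346) were below 1 in all 3 conditions. The long coding sequences of Mtor (7647 bases) and Rptor (4005 bases) are among these and the shortest, that of Rheb (552 bases), is at the top. Against such an order by length, Rictor (5124 bases) had a higher ratio than Rptor in all 3 conditions, and Akt1s1 (984 bases) is short and low.

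**Figure D3:**
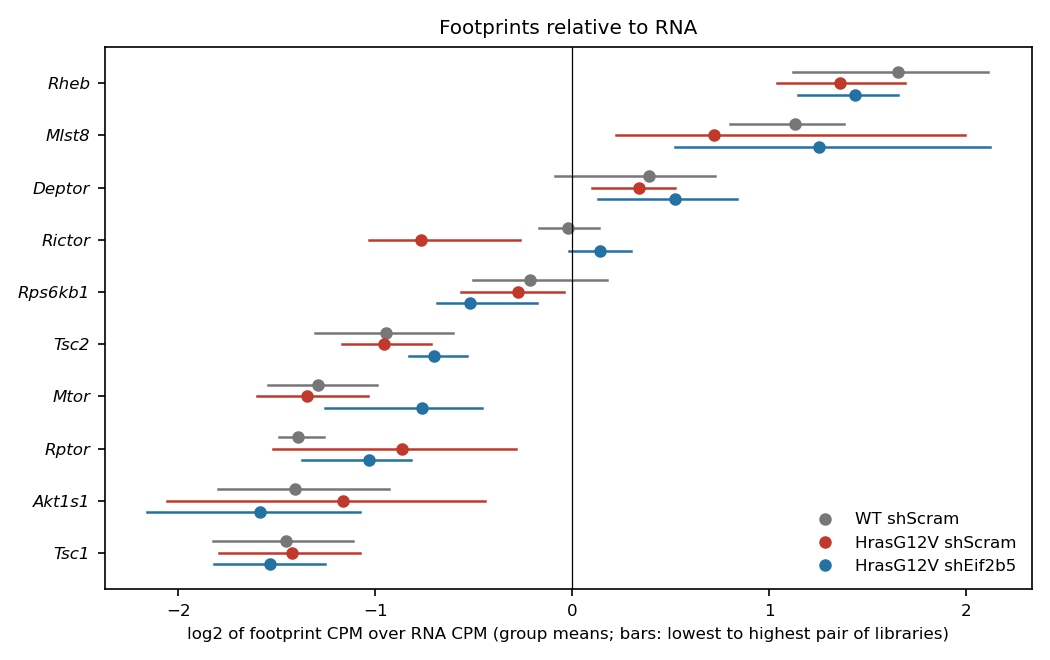
Log2 of footprint CPM over RNA CPM (horizontal axis) for each gene, as the ratio of group means (points, coloured by condition), with lines from the lowest to the highest pair of libraries. Rheb and Mlst8 lie to the right of 0 and Tsc1, Tsc2, Akt1s1, Rptor, Mtor and Rps6kb1 to the left in all 3 conditions, and Rictor in HrasG12V shScram lies at -0.77.

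The other genes of the pathway were counted in 10 lists holding 91 genes. In footprints 87 were tested and edgeR called 0 in each of the 3 comparisons, with 6, 1 and 9 at an unadjusted p under 0.05 (HrasG12V shScram against WT shScram, HrasG12V shEif2b5 against HrasG12V shScram, HrasG12V shEif2b5 against WT shScram). DESeq2 and limma voom called 0 of them as well. Their median footprint log2 differences were 0.05, 0.0041 and 0.02. In RNA 86 were tested, and 2 rose and 4 fell in HrasG12V shScram against WT shScram, where 7.7% of all genes were called. In HrasG12V shEif2b5 against HrasG12V shScram 4 rose and 11 fell, where 13% were called. Nothing particular to the pathway is read from these counts. In RNA 0 were called in HrasG12V shEif2b5 against WT shScram, with 4 at an unadjusted p under 0.05 and 0 by DESeq2 and limma voom. The RNA medians were -0.0021, -0.01 and -0.08. All the RNA calls thus involve the HrasG12V shScram RNA libraries, which those comparisons share. Without replicates 1 and 3 that group has 1 RNA library left, and calls kept in that fit are not counted. All 6 and all 15 had the same sign there. With GC and length offsets 3 of 6 and 5 of 15 were kept, where 401 and 629 of all genes were called, against 854 and 1444 without the offsets.

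Ragulator, the complex that anchors Rag GTPases and mTORC1 at the lysosome, held the calls of largest size. Lamtor2 RNA was 47.1 ± 8.24 CPM in HrasG12V shScram, 27.7 ± 2.90 CPM in WT shScram and 21.4 ± 3.76 CPM in HrasG12V shEif2b5 (SD, n = 3 each). It rose by 0.80 on the log2 scale against WT shScram (adjusted p = 0.0194) and fell by 1.15 between the HrasG12V groups (adjusted p = 0.00341). Lamtor1 RNA rose by 0.71 (adjusted p = 0.0355) and fell by 0.63 (adjusted p = 0.0439) in the same comparisons. Lamtor5 RNA fell by 1.01 between the HrasG12V groups (adjusted p = 0.0219), and RNA of Rragd, a Rag GTPase, fell by 0.90 in HrasG12V shScram against WT shScram (adjusted p = 0.0327). Translation efficiency was called lower for Lamtor1 in HrasG12V shScram against WT shScram (log2 -0.94, edgeR adjusted p = 0.0462). It was called higher for Lamtor2 in HrasG12V shEif2b5 against HrasG12V shScram (0.98, edgeR adjusted p = 0.0265). Without RNA libraries 1 and 3 of HrasG12V shScram, which leaves 1 in that group, these differences were -0.99 and 0.77. The RNA differences without those libraries were also of similar size for Lamtor1 against WT shScram (0.75), Rragd (-0.83) and Lamtor5 (-1.10). Those of Lamtor2 were smaller, at 0.59 against WT shScram and -0.93 between the HrasG12V groups. In footprints the 8 Rag and Ragulator genes tested ran from -0.24 to 0.18 and from -0.23 to 0.27 in these comparisons, with 0 called.

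In the list of PI3K and AKT genes, RNA of Pik3r2, a regulatory subunit of PI3K, fell by 0.57 in HrasG12V shScram against WT shScram (adjusted p = 0.0183) and rose by 0.57 between the HrasG12V groups (adjusted p = 0.0137). Akt1, the kinase that inhibits TSC2 and PRAS40, rose by 0.48 there (adjusted p = 0.0284). Stk11, which encodes LKB1, the kinase that activates AMPK, rose by 0.63 (adjusted p = 0.0313). Telo2, a chaperone partner in the assembly of mTOR complexes, fell by 0.61 in HrasG12V shScram against WT shScram (adjusted p = 0.0495) and rose by 0.69 between the HrasG12V groups (adjusted p = 0.0235). Among the other lists, RNA fell between the HrasG12V groups for Sec13 of GATOR by 0.67 (adjusted p = 0.0366) and for the kinases Sgk1 by 0.56 (adjusted p = 0.0407) and Rps6ka3 by 0.75 (adjusted p = 0.0101). Eef2k, the kinase of elongation factor eEF2, fell by 0.61 in HrasG12V shScram against WT shScram (edgeR adjusted p = 0.0405). With GC and length offsets Sec13 alone of the genes called in this paragraph was called. Over 18 alternatives the calls were kept in as few as 5 (Telo2 against WT shScram), 6 (Sgk1), 8 (Akt1) and 9 (Stk11). The most was 13 (Pik3r2 between the HrasG12V groups). Lists with no call had their smallest p at Rhebl1, a paralog of Rheb, with a footprint log2 difference of -0.69 in HrasG12V shEif2b5 against WT shScram (adjusted p = 0.333), and at Fnip1, a folliculin partner, with an RNA log2 difference of -0.53 between the HrasG12V groups (adjusted p = 0.0651).

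DEPTOR protein is removed by the SCF ubiquitin ligase with the F-box proteins encoded by Btrc and Fbxw11, and deubiquitinases such as OTUB1 and USP7 act against this. Of the 6 genes of that list, edgeR, DESeq2 and limma voom each called 0 in footprints and 0 in RNA against WT shScram in either HrasG12V group, the comparisons in which Deptor was higher. By edgeR, 0 and 1 had an unadjusted p under 0.05 in footprints and 2 and 0 in RNA. Between the HrasG12V groups, where 13% of all genes were called, 4 of 6 fell in RNA, namely Otub1 by 0.75 (adjusted p = 0.0231), Skp1a by 0.55 (adjusted p = 0.0239), Cul1 by 0.68 (adjusted p = 0.0264) and Usp7 by 0.58 (adjusted p = 0.0416), with overlapping libraries for Cul1 and Usp7. With GC and length offsets Otub1 alone of the 4 was called, and the sign of Skp1a turned (log2 difference 0.13). Usp7 was not called with the replicate block (adjusted p = 0.0671) or by limma voom (adjusted p = 0.0534). Without HrasG12V shScram libraries 1 and 3, with 1 library left in that group, the 4 were at -0.27 (Otub1), -0.38 (Skp1a), -0.10 (Cul1) and -0.06 (Usp7). The other 2, Btrc and Fbxw11, were at 0.22 and -0.23. In footprints the 6 ran from -0.25 to 0.14 in that comparison. DEPTOR protein was not measured.

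**Figure D4:**
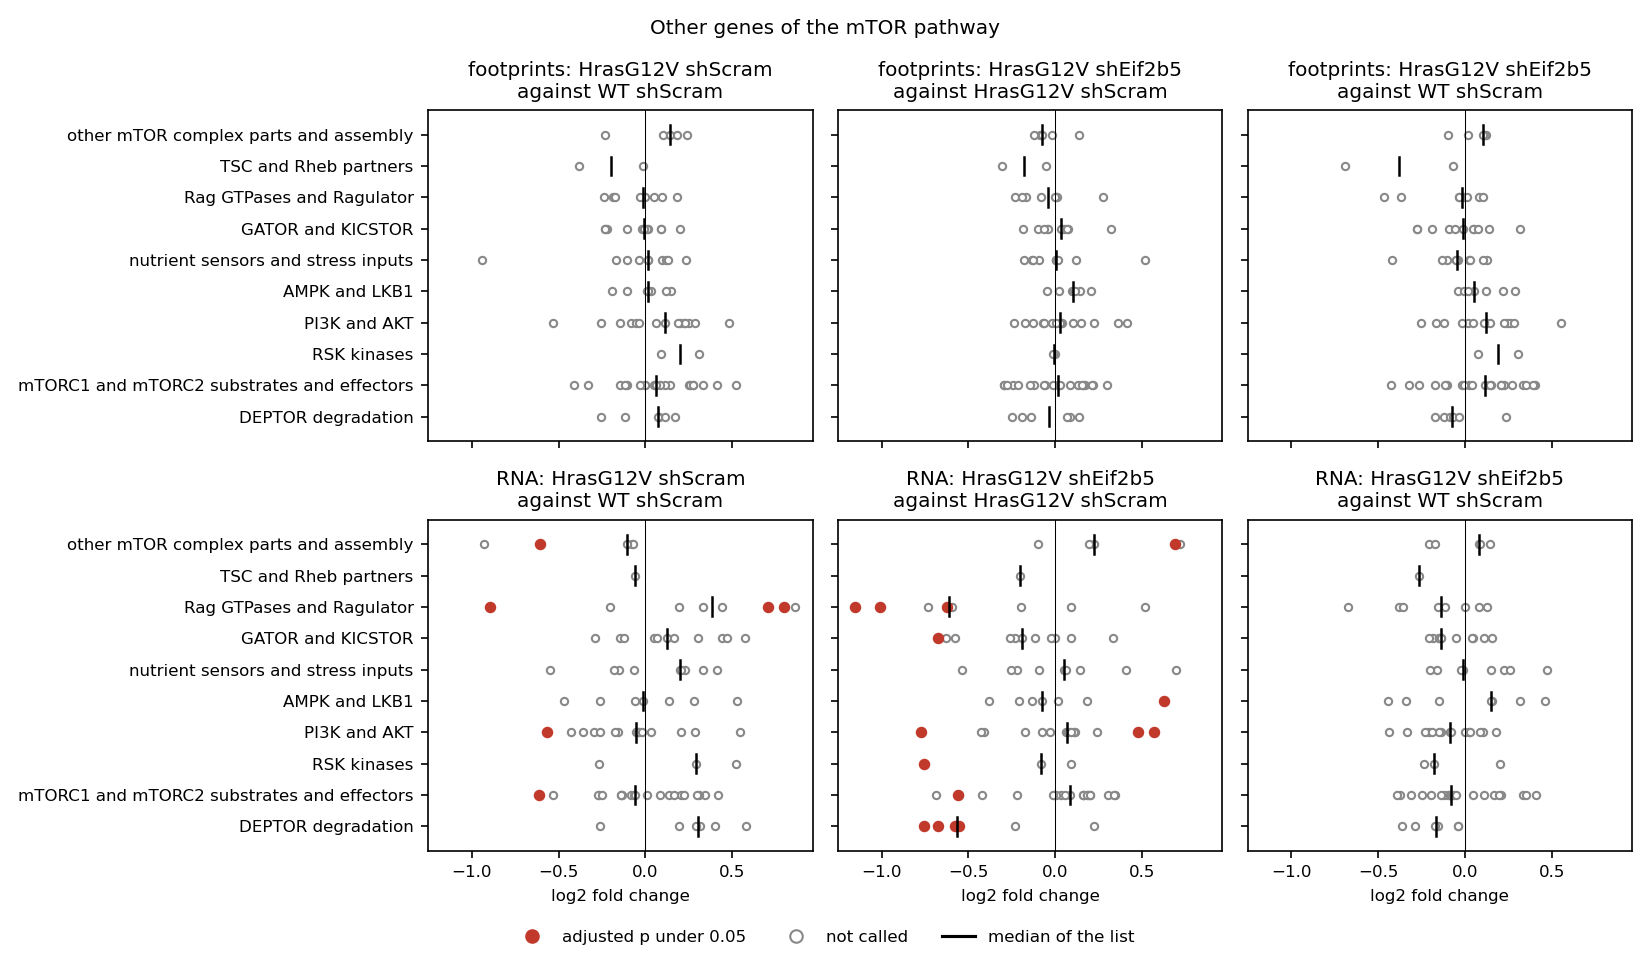
Log2 fold changes (horizontal axes) of the other pathway genes by list (rows), for footprints (top) and RNA (bottom) in 3 comparisons, with called genes in red and a bar at the median of each list. Red points appear in RNA in the 2 comparisons that include HrasG12V shScram, with 6 and 15 genes, and 0 appear in footprints.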

How the data were processed

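The authors deposited raw counts of reads in coding sequences for each gene symbol. Bowtie, TopHat2, HTSeq and mm10 are named in the submitters' processing notes; versions, annotation and strand setting are not given in the sources used here. All per-sample columns were used. The 10 genes, the pathway lists and the tests were chosen with earlier results of these data known. Named genes were the 10 members, up to 4 called genes per list and comparison (else the 1 with the smallest p) and the 5 genes most like Deptor; 1 gene named by this rule is not reported here. Genes passed filterByExpr (minimum count 10, minimum total 15) in edgeR 4.0.16 (R 4.3.3). TMM-scaled counts of the 9 libraries of a kind, or all 18 for translation efficiency, were fitted by robust quasi-likelihood, with Benjamini-Hochberg adjustment over all genes tested and calls under 0.05. With 3 libraries a group, the smallest two-sided exact permutation p is 0.1. The scripts were tested on simulated data. Alternatives covered scaling, filters, DESeq2 1.42.0, limma 3.58.1 voom, a replicate block, GC and length offsets (GENCODE M21) and left-out libraries. No coding sequence of another gene overlaps those of the 10 genes.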

Additional observations from a re-analysis of the deposited data

How the results depend on the processing

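The number of members called (1, 0 and 1 in footprints; 1, 1 and 1 in RNA; 0, 1 and 0 in translation efficiency, in the order HrasG12V shScram against WT shScram, HrasG12V shEif2b5 against HrasG12V shScram, HrasG12V shEif2b5 against WT shScram) stayed within 1.5 times in 136 of 168 alternatives, among them all 48 for footprints. Since every count with all libraries was 0 or 1, this means an unchanged count. In footprints between the HrasG12V groups (16 alternatives) edgeR called 0 genes in the whole table with all libraries. The same was so in translation efficiency for HrasG12V shEif2b5 against WT shScram (22 alternatives), so an unchanged 0 says little there. With the replicate block, 0 members were called in RNA in HrasG12V shEif2b5 against WT shScram (Deptor, edgeR adjusted p = 0.0593), and the block changed no other count. With the block and GC and length offsets together, 0 were called between the HrasG12V groups in RNA and 0 in translation efficiency, and with the offsets alone 0 in the latter. The residuals of same-numbered libraries correlated at -0.141 to 0.24 between conditions in footprints and -0.307 to 0.301 in RNA, each over 0.1 in 2 of 9 pairs, so the numbers did not meet the rule for pairing (over 0.1 in every pair). Between the footprint and the RNA library of 1 condition and number they correlated at 0.015 to 0.287, over 0.1 in 6 of 9 pairs and best with the own number in 8 of 9, a hint from the data and not from the design. The translation efficiency block joined these pairs. Without HrasG12V shScram RNA libraries 1 and 3 that group has 1 RNA library left, and member counts from that fit are not read. With a term for the 3 RNA libraries above 4000000 counts, chosen after seeing the data, 0 were called in RNA between the HrasG12V groups. DESeq2 called 1 in translation efficiency in HrasG12V shScram against WT shScram (Rictor, adjusted p = 0.0346). Leaving out 1 library gave RNA counts of 1 to 4, 0 to 2 and 0 to 1, and translation efficiency counts of 0 to 1, 0 to 2 and 0 to 0. Over all genes the same fits called 189 to 2431, 197 to 3150 and 12 to 20 in RNA. In translation efficiency they called 11 to 693, 7 to 1350 and 0 to 18. The highest totals in the first 2 comparisons came without HrasG12V shScram RNA replicate 2. Nothing particular to the members is read from these counts. RNA counts of Mlst8 and Deptor were as low as 10 and 26 in a library. The cause of these changes was not tested.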
